A study of Mus musculus with 9 samples.

Results

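The genes described here encode the membrane skeleton of the red blood cell and the membrane proteins that anchor it: Sptb, Ank1, Add2, Epb41, Epb42, Slc4a1, Tmod1 and Dmtn. They were taken by name, and each is represented by the probe set that names it alone in the array annotation, the one with the highest mean where a gene had several. Of the 8 genes, 7 had such a probe set, out of 19933 genes on the array, and all 7 passed the filter on dim probe sets, which left 13207 genes to test. Epb41 was not analysed here.

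The series measured total RNA of mouse yolk sac at embryonic day 9.5 on an Affymetrix whole-transcript gene array, 1 array per sample. Rnh1, the gene that was disrupted, encodes ribonuclease inhibitor, which sits in the cytosol and inactivates enzymes of the ribonuclease A family by tight binding. The groups were homozygous knockout (KO, Rnh1 -/-), heterozygous (HET, Rnh1 +/-) and wild type (WT, Rnh1 +/+), with 3 arrays each. All embryos shared a mixed SV 129/C57BL/6 background and received no treatment, and the labels do not describe the targeted allele, the sex of the embryos or whether an array held 1 yolk sac or a pool. P-values therefore measure the spread between these samples, which may be partly technical.

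A red cell keeps its shape through a network of spectrin tetramers on the inner face of the membrane, joined at junctions by short actin filaments. The junctions hold the product of Epb41, adducin, dematin and tropomodulin, and the network is tied to the lipid bilayer through ankyrin, which binds the anion exchanger band 3 together with the product of Epb42. In the mouse yolk sac the blood islands make the first, primitive red cells, which enter the circulation with nuclei and build this skeleton as they mature. Loss of spectrin, ankyrin or band 3 causes fragile, rounded red cells in mice and people.

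RefSeq promoter windows on GRCm38.p6 were at hand for 4 of the 7 measured genes. Of the 7 measured genes, Add2, Epb42 and Sptb were the 3 whose signal was lower on every KO array than on every HET and WT array, and the 250 bases before their transcription starts are shown for that reason. Each is written 5′ to 3′ on the strand of the gene, and capitals mark matches, on either strand, to AGATAA (a form of the GATA factor motif) or CAGNTG (an E-box). The Epb42 window is chr2:121036878-121037127 on the minus strand, that of Add2 is chr6:86028431-86028680 on the plus strand and that of Sptb is chr12:76710548-76710797 on the minus strand.
Epb42: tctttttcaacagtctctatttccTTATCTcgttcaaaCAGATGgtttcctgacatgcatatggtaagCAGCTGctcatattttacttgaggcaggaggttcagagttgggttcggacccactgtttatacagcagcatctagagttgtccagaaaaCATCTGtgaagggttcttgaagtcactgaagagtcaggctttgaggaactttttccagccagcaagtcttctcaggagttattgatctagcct
Add2: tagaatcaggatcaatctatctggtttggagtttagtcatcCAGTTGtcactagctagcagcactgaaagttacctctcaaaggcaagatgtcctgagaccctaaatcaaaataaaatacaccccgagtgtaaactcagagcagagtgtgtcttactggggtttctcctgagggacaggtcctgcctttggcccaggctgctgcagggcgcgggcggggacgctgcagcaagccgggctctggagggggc
Sptb: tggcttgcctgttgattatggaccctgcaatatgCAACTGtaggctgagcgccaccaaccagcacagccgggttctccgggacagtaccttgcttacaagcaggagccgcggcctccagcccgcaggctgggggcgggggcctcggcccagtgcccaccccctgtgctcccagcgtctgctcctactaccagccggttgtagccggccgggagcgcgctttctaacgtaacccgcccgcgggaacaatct

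The Epb42 window held 1 match to the GATA form, on the opposite strand, and 3 E-boxes, while Add2 and Sptb held 1 E-box each. Among all 32851 windows of this length, 9.99% held that GATA form and 44.8% held an E-box, searched on both strands. The other form searched for GATA factors, TGATAA, was found in 7.94% of all windows and the KLF form, CCNCACCC, in 14.9%. Neither was in any of the 4 windows, and the Tmod1 window, which is not shown, held no match at all. These are matches of letters and were not set against any binding data.

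Rnh1 itself followed the labels. Its log2 signal was 6.28, 6.78 and 6.87 on the KO arrays, 9.75, 9.75 and 9.77 on the HET arrays and 10.39, 10.42 and 10.32 on the WT arrays. No KO array came near a HET or WT array, and every HET array lay below every WT array. The KO minus WT difference was -3.73 (SE 0.13, limma), and HET minus WT was -0.62 (limma adjusted p = 0.939). In HET against WT no gene tested passed, the disrupted gene included. Array medians ran from 7.07 to 7.20, and arrays of 1 genotype correlated with r of 0.992 to 0.998 across probe sets. On the second principal component, scaled to its largest absolute value, KO 1 and WT 2 were lowest, at -1.00 and -0.57. HET 3 was highest there, at 0.63. Sex-linked transcripts were not balanced between genotypes. Xist, made from the inactive X chromosome, was 11.05, 11.06 and 11.67 on the KO arrays, 5.15, 10.56 and 5.76 on the HET arrays and 5.69, 10.65 and 11.00 on the WT arrays. The Y-linked Eif2s3y was 7.62, 7.27 and 4.41 on the KO arrays, 8.68, 7.87 and 8.48 on the HET arrays and 8.81, 8.15 and 4.34 on the WT arrays. KO 1, KO 2, HET 2 and WT 2 thus read high for both genes, and no sex is assigned to the arrays here.

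The red cell skeleton genes were lower in KO than in WT yolk sacs. In limma, with adjustment over all genes tested, 6 of the 7 fell and none rose, against 15.2% of all tested genes that fell and 8.27% that rose. The median difference of the 7 was -0.62 on the log2 scale, beside -0.00 over all genes tested. The falls ran from 1.02 for Add2 to 0.54 for Tmod1, and Dmtn, at -0.18, did not pass. In RNA of whole yolk sac, fewer red cells and less RNA of these genes per red cell cannot be told apart. On all KO arrays 4 of the 7 were lower than on all WT arrays, against 24.7% of all genes tested.

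The 6 calls were not equally firm. Add2, Epb42 and Sptb passed under every setting tried. With the Eif2s3y signal of each array as a covariate, 3 of 7 passed, and Ank1, Slc4a1 and Tmod1 had limma adjusted p of 0.0667, 0.0668 and 0.0530. The same 3 genes did not pass after cyclic loess, at 0.0698, 0.0550 and 0.0568. Ank1 and Slc4a1 did not pass without a filter (0.0610 and 0.0612) or with only KO and WT arrays in the fit (0.0614 and 0.0815), nor Ank1 and Tmod1 after quantile normalization (0.0690 and 0.0505). With KO 1 and WT 2 both left out, 6 of 7 passed.

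**Figure D1:**
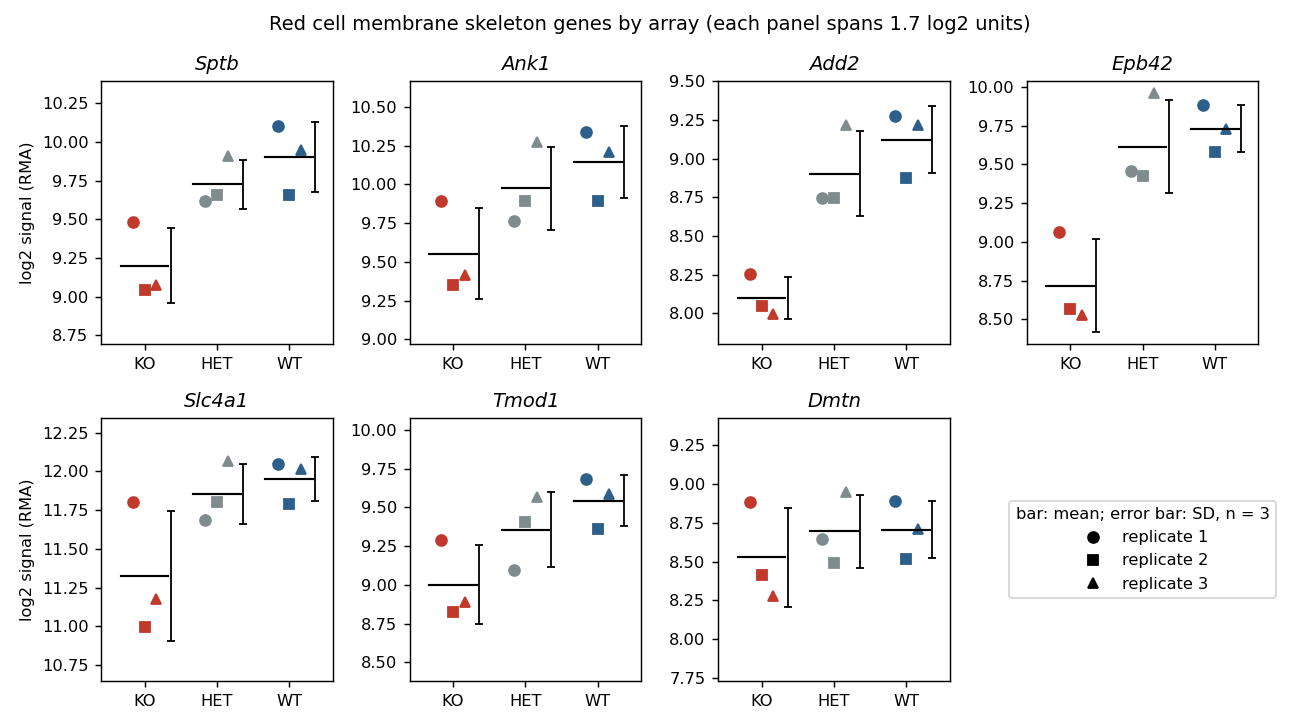
Log2 signal (vertical axis) of each of the 7 measured genes on the 3 KO, 3 HET and 3 WT arrays, 1 point per array, with a line at each genotype mean and an error bar of 1 SD (n = 3). For Sptb, Add2 and Epb42 every KO point lies below every HET and WT point, and for the other 4 genes KO 1 lies among them.

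Spectrin is the fibre of the network, and Sptb encodes its erythroid beta chain. Sptb read 9.48, 9.05 and 9.07 on the KO arrays, 9.61, 9.65 and 9.91 on the HET arrays and 10.10, 9.65 and 9.95 on the WT arrays. All KO values lay under all others, although KO 1 came within reach of HET 1. The mean was 9.20 ± 0.24 in KO, 9.73 ± 0.16 in HET and 9.90 ± 0.23 in WT (SD, n = 3 each). The KO minus WT difference of Sptb was -0.70 (SE 0.15, limma adjusted p = 0.0111), a signal at 61.5% of WT with a 95% interval, not adjusted for the number of genes, of 48.7% to 77.6%. Leaving out any 1 array kept this call.

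Ank1 encodes erythroid ankyrin, the adaptor between beta spectrin and band 3. It read 9.89, 9.35 and 9.41 on the KO arrays, 9.76, 9.89 and 10.27 on the HET arrays and 10.34, 9.89 and 10.21 on the WT arrays. KO 1 shared its value with HET 2 and WT 2 to every deposited digit, so the groups met at that level, while KO 2 and KO 3 lay under all 6 other arrays. The difference from WT was -0.59 (SE 0.18, limma adjusted p = 0.0439), with a 95% interval of -1.01 to -0.18. The call was lost without WT 1, WT 3, HET 1, HET 2, KO 2 or KO 3, at limma adjusted p of 0.0531 to 0.139.

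Slc4a1 encodes band 3, the chloride and bicarbonate exchanger that is also the main membrane anchor of the skeleton. It was the brightest probe set of the 7, above 93.5% to 97.8% of the probe sets of its array. Slc4a1 read 11.80, 11.00 and 11.18 on the KO arrays, 11.69, 11.80 and 12.07 on the HET arrays and 12.05, 11.79 and 12.01 on the WT arrays. KO 1 lay level with the lower HET and WT arrays, and KO 2 and KO 3 lay well under them. The difference from WT was -0.62 (SE 0.19, limma adjusted p = 0.0442). It did not pass without WT 1, WT 2, WT 3, HET 1, HET 2, KO 2 or KO 3, at limma adjusted p of 0.0601 to 0.136, whereas without KO 1 it was -0.86 with adjusted p = 0.0040.

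Epb42 encodes a protein that binds band 3 and ankyrin and belongs to the transglutaminase family without having the enzyme activity. It read 9.06, 8.57 and 8.53 on the KO arrays, 9.46, 9.43 and 9.96 on the HET arrays and 9.89, 9.58 and 9.73 on the WT arrays. The highest KO array lay below the lowest of the 6 others. The mean was 8.72 ± 0.30 in KO, 9.61 ± 0.30 in HET and 9.73 ± 0.15 in WT (SD, n = 3 each). The difference from WT was -1.01 (SE 0.18, limma adjusted p = 0.0053), a signal at 49.5% of WT with a 95% interval of 37.5% to 65.5%. No single left-out array ended this call.

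At the junctions, Add2 encodes beta adducin, which caps actin filaments and recruits spectrin to them. It read 8.26, 8.05 and 8.0 on the KO arrays, 8.74, 8.74 and 9.22 on the HET arrays and 9.28, 8.88 and 9.22 on the WT arrays. The KO arrays were close together and well under the rest, with a mean of 8.10 ± 0.14 in KO, 8.90 ± 0.27 in HET and 9.12 ± 0.22 in WT (SD, n = 3 each). The difference from WT was -1.02 (SE 0.15, limma adjusted p = 0.0028), a signal at 49.2% of WT with a 95% interval of 38.9% to 62.4%. The call held without any 1 array, and without KO 1 the difference was -1.10.

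Tmod1 encodes tropomodulin 1, which caps the pointed end of the short actin filaments. Its brighter probe set read 9.29, 8.82 and 8.89 on the KO arrays, 9.10, 9.41 and 9.57 on the HET arrays and 9.69, 9.36 and 9.59 on the WT arrays. All KO arrays lay below all WT arrays, but HET 1 was lower than KO 1. The difference from WT was -0.54 (SE 0.16, limma adjusted p = 0.0347). The call was lost without WT 1, WT 3, HET 2, KO 2 or KO 3, at limma adjusted p of 0.0541 to 0.114.

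Tmod1 was the only one of the 7 with more than 1 probe set of its own. The dimmer one, which also names Tmod1 alone, read 7.35, 7.94 and 7.82 on the KO arrays, 7.57, 7.59 and 7.85 on the HET arrays and 7.64, 7.39 and 7.64 on the WT arrays. On it KO 1 was the lowest of all arrays and KO 2 the highest, and the genotypes overlapped. In a limma fit over probe sets its KO minus WT difference was 0.15 (SE 0.15, adjusted p = 0.499), against -0.54 (adjusted p = 0.0367) for the brighter one. The dimmer minus the brighter signal was -1.94, -0.88 and -1.07 on the KO arrays, -1.52, -1.82 and -1.72 on the HET arrays and -2.05, -1.97 and -1.95 on the WT arrays. In a two-sided exact permutation test of KO against the 6 other arrays this difference had p = 0.0952. With the mean of both probe sets, Tmod1 was at -0.20 and did not pass (limma adjusted p = 0.197).

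**Figure D2:**
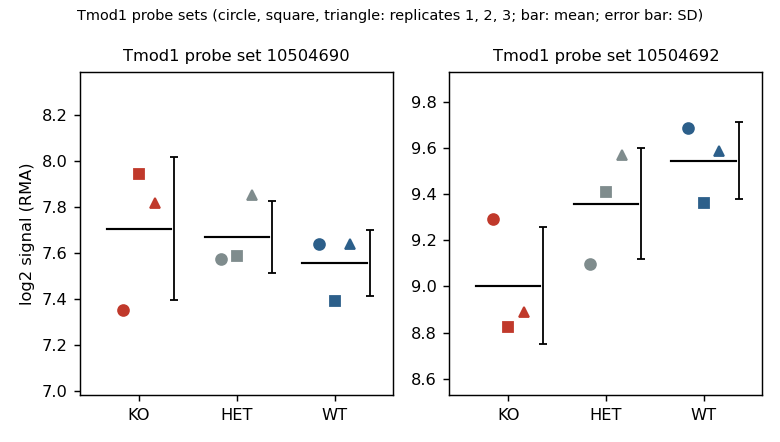
Log2 signal (vertical axis) of the 2 probe sets that name Tmod1 alone, 1 point per array for the 3 KO, 3 HET and 3 WT arrays. The brighter probe set is lower on all KO than on all WT arrays, and on the dimmer one the genotypes overlap.

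Dmtn encodes dematin, which bundles actin and links the junctions to the membrane. It read 8.89, 8.41 and 8.28 on the KO arrays, 8.65, 8.49 and 8.95 on the HET arrays and 8.89, 8.52 and 8.71 on the WT arrays. The genotypes overlapped, with KO 1 as high as WT 1. Its difference from WT was -0.18 (SE 0.17, limma adjusted p = 0.473), with a 95% interval of -0.57 to 0.21, which still holds falls as large as that of Tmod1. Without KO 1 it was -0.36, with limma adjusted p = 0.0992. Of the 12 other settings, only array weights brought Dmtn past the test, at limma adjusted p = 0.0129. Under that setting 43.6% of all genes tested passed in either direction.

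**Figure D3:**
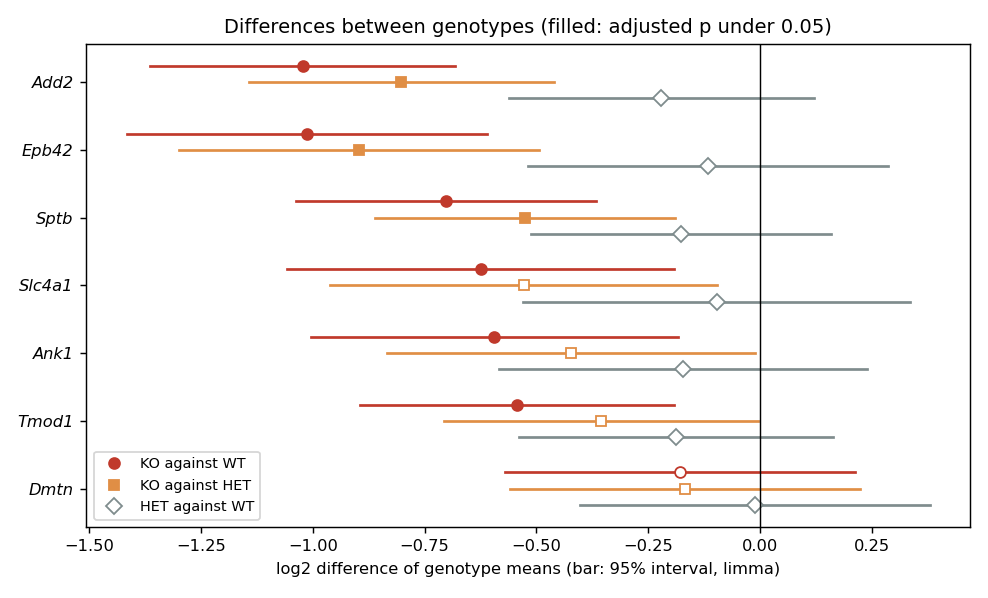
Log2 differences (horizontal axis) of the 7 genes for KO minus WT, KO minus HET and HET minus WT, with 95% intervals from limma that are not adjusted for the number of genes; filled symbols passed at an adjusted p under 0.05. The KO minus WT intervals of 6 genes lie below 0, that of Dmtn spans 0, and all HET minus WT intervals span 0.

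In the main fit these genes were near the WT level in HET yolk sacs. HET minus WT differences ran from -0.22 for Add2 to -0.01 for Dmtn, and all 7 were below 0, as were 50.9% of all genes tested. None passed in limma, where the adjusted p was 0.939 or higher, and 0.0% of all genes tested passed, with 327 at an unadjusted p under 0.05. The HET and WT arrays overlapped for each of the 7 genes, while 5.98% of all genes tested were lower in HET without overlap. The 95% interval for Add2 was -0.56 to 0.12, so a fall of up to 0.56 in HET is within its error. Over the other settings the lowest HET minus WT difference was -0.46 for Add2, -0.45 for Ank1 and -0.42 for Sptb. Their lowest limma adjusted p over those settings was 0.0636, 0.0647 and 0.0636, and none passed.

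KO yolk sacs were also set against HET yolk sacs, a comparison that shares its KO arrays with the one above. Here Epb42 (-0.90, limma adjusted p = 0.0088), Add2 (-0.80, adjusted p = 0.0070) and Sptb (-0.52, adjusted p = 0.0349) fell, 3 of 7, against 13.6% of all genes tested. The other 4 did not pass: Slc4a1 was at -0.53 (limma adjusted p = 0.0807), Ank1 at -0.42 (0.133), Tmod1 at -0.36 (0.138) and Dmtn at -0.17 (0.545). Without KO 1, the limma adjusted p was 0.0059 for Slc4a1, 0.0384 for Ank1 and 0.0383 for Tmod1, and 6 of 7 genes passed. The Sptb call was lost without WT 3, HET 1, HET 2, HET 3, KO 2 or KO 3, at limma adjusted p of 0.0508 to 0.105, and with Eif2s3y as a covariate, at 0.11.

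With WT and HET taken as 1 group of 6, 6 of 7 genes fell in limma, against 19.1% of all genes tested. Epb42 was at -0.96 (adjusted p = 0.0014), Add2 at -0.91 (0.0011), Sptb at -0.61 (0.0064), Slc4a1 at -0.58 (0.0213), Ank1 at -0.51 (0.0332) and Tmod1 at -0.45 (0.0321). The calls of Ank1 and Tmod1 were lost without WT 1, WT 3, HET 3, KO 2 or KO 3, that of Tmod1 also without HET 2, and that of Slc4a1 without KO 2 or KO 3, at limma adjusted p of 0.0528 to 0.136. With Eif2s3y as a covariate Ank1 and Tmod1 did not pass either, at 0.0692 and 0.0620, nor did Ank1 after quantile normalization or cyclic loess, at 0.0502 each. A two-sided exact permutation test over the 84 ways to take 3 of 9 arrays gave p = 0.0238, the smallest it can give, for Sptb, Add2 and Epb42. These are the 3 genes without overlap, against 18.7% of all genes tested that were lower without overlap. The exact p was 0.0476 for Tmod1, 0.0714 for Slc4a1, 0.0952 for Ank1 and 0.31 for Dmtn. With 3 arrays against 3 this test cannot go below 0.1.

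The genes did not fall by the same amount. The difference between each pair of genes was taken within every array, and KO was set against the 6 other arrays for all 21 pairs, which share genes and are not independent. For 12 pairs the KO arrays did not overlap the others, each with a two-sided exact permutation p of 0.0238, the smallest possible. After Benjamini-Hochberg adjustment over the 21 pairs this permutation p was 0.0417. How often pairs of other tested genes separate was not computed, so the count is not read as particular to these genes. Add2 and Epb42 fell further than Sptb, Ank1, Tmod1 and Dmtn. Epb42 minus Dmtn was 0.18, 0.15 and 0.25 on the KO arrays, 0.81, 0.94 and 1.01 on the HET arrays and 1.00, 1.06 and 1.02 on the WT arrays. Epb42 also fell further than Slc4a1, Sptb further than Tmod1 and Dmtn, and Slc4a1 further than Dmtn. Add2 and Epb42 did not separate: their difference moved by -0.01 between KO and WT. Between KO and the 6 other arrays it moved by 0.04, with an exact permutation p of 0.643.

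The 7 genes also tended to vary together between the KO arrays and between the other arrays. All 7 genes were highest in KO 1 among the KO arrays, where ranges ran from 0.26 for Add2 to 0.81 for Slc4a1, and 4 were lowest in KO 2. Among the 6 HET and WT arrays, ranges ran from 0.38 to 0.59, with 5 genes lowest in HET 1 and 4 highest in WT 1. For each gene, KO 1 was the knockout array nearest to the HET and WT level.

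Regulators of red cell formation were read on the same arrays. Of 10 listed transcription factors, cofactors and receptors, none fell in KO against WT in limma, where 15.2% of all genes tested fell, and Ldb1, a cofactor that bridges enhancers and promoters, rose by 0.36 (adjusted p = 0.0112). Klf1, the factor that drives many red cell genes, was at -0.43 (limma adjusted p = 0.0899) and passed only without KO 1 among the left-out arrays, at 0.0218, and with WT 2 and KO 1 both left out, at 0.0160. With array weights 6 of the 10 fell (Gata1, Klf1, Tal1, Epor, Gfi1b and Nfe2), at limma adjusted p of 0.0013 to 0.0474. Bcl11a, at 0.11 in the main fit, also passed with array weights. Under that setting 43.6% of all genes tested passed in either direction, and the share that fell alone is not given here. Against the pooled WT and HET arrays without KO 1, Gata1 was at -0.46 (limma adjusted p = 0.0250) and Klf1 at -0.55 (0.0107). Gata1, the GATA factor of red cells, read 9.59, 8.74 and 8.75 on the KO arrays, 8.94, 9.17 and 9.49 on the HET arrays and 9.41, 9.09 and 9.17 on the WT arrays. Its highest value was in KO 1, the array in which all 7 skeleton genes were also at their KO maximum.

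The skeleton genes were also read relative to the mean of these 10 regulators on the same array, a measure chosen after the values were seen. The mean of the 7 genes minus that of the regulators was -0.03, -0.10 and -0.09 on the KO arrays, 0.43, 0.40 and 0.47 on the HET arrays and 0.57, 0.42 and 0.53 on the WT arrays. On this measure KO 1 lay with KO 2 and KO 3, and no KO array reached a HET or WT array. Every gene but Dmtn, 6 of 7, was lower on all KO than on all HET and WT arrays, against 4.42% of all genes tested. That share is not a fair background, and without subtraction it was 18.7%. The mean of the regulators was itself 9.55 in KO 1 and 9.14 in KO 2 and KO 3. Subtracting it spreads the KO values of any gene that does not vary with it. The KO minus WT differences were -0.94 for Add2, -0.93 for Epb42, -0.62 for Sptb, -0.54 for Slc4a1, -0.51 for Ank1, -0.46 for Tmod1 and -0.09 for Dmtn.

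The choice of regulator mattered for the size. Relative to Gata1 alone, 5 of 7 genes were lower on all KO than on all HET and WT arrays, against 0.84% of all genes tested, with KO minus WT differences of -0.83 to 0.02. Relative to Klf1 alone, 3 of 7 were (Sptb, Add2 and Epb42), against 0.583%, with differences of -0.59 to 0.25. These shares carry the same limit, as Gata1 was itself highest in KO 1, so nothing is read from the contrast with them. Several of these regulators are also made by megakaryocytes, blood progenitors or endothelium, so their mean is not a measure of red cells alone.

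**Figure D4:**
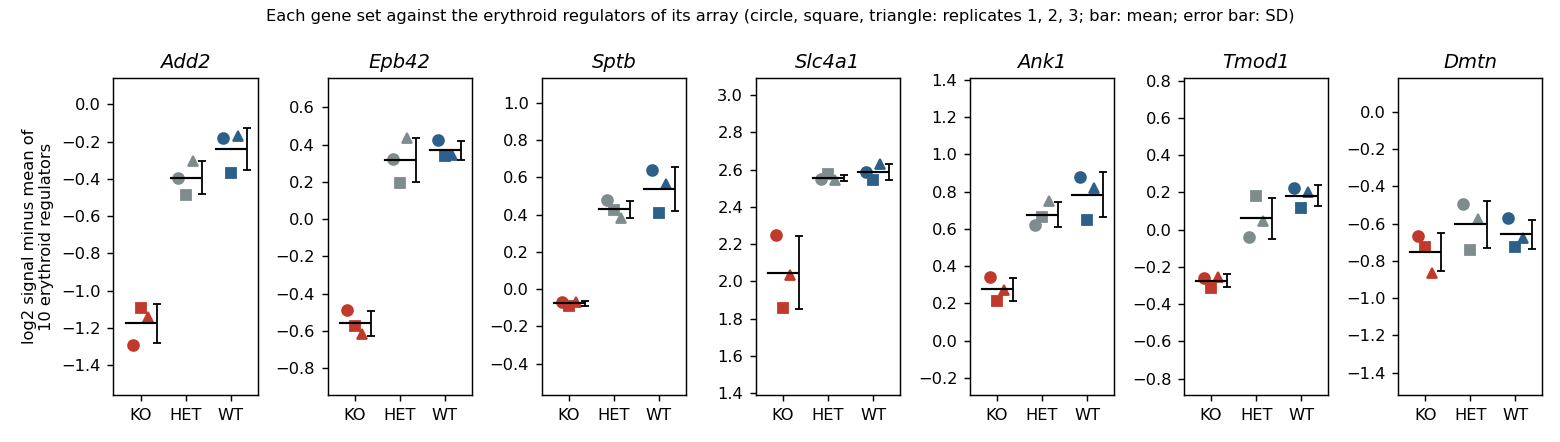
Log2 signal of each of the 7 genes minus the mean log2 signal of 10 erythroid regulators on the same array (vertical axis), for the 3 KO, 3 HET and 3 WT arrays, with lines at the means and error bars of 1 SD. In all genes but Dmtn the KO points lie under every HET and WT point.

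Other proteins of the red cell membrane were taken as a list of 21 partners, of which 19 were tested. In KO against WT, 8 fell, none rose and 11 did not pass, with a median of -0.29, while 15.2% of all genes tested fell and 8.27% rose. The falls numbered 4 without WT 1 or WT 2, and 5 without KO 2 or KO 3. Among the 8 was the Rh group, whose products form a channel-like complex in the membrane bound to the skeleton through ankyrin. Rhd read 7.50, 6.80 and 6.95 on the KO arrays, 8.14, 8.41 and 8.57 on the HET arrays and 8.50, 8.27 and 8.25 on the WT arrays, without overlap. Its difference from WT was -1.26 (limma adjusted p = 0.0026), and the call held without any 1 array.

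Rhag, the Rh-associated glycoprotein, read 9.54, 8.44 and 8.14 on the KO arrays, 9.53, 9.76 and 10.19 on the HET arrays and 10.11, 9.84 and 9.98 on the WT arrays. KO 1 was level with HET 1, far above KO 2 and KO 3. The difference from WT was -1.27 (limma adjusted p = 0.0209), lost without WT 1, WT 3, KO 2 or KO 3 at 0.0504 to 0.0705. Kel and Xk encode the 2 linked proteins of the Kell complex, and were at -0.95 (limma adjusted p = 0.0248) and -0.59 (0.0463). The Kel call was lost without WT 1, WT 2, WT 3, KO 2 or KO 3, at 0.0532 to 0.083, and the Xk call without any 1 array other than KO 1, at 0.0523 to 0.145. With only KO and WT arrays in the fit, Kel was at 0.0538 and Xk at 0.0835, and the Xk call was lost under 5 more settings, at 0.0529 to 0.0656.

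The genes of the other adducins fell too. Add3 was at -0.40 (limma adjusted p = 0.0030) and Add1 at -0.27 (adjusted p = 0.0133), both kept without any 1 array. Stom, which encodes stomatin, was at -0.57 (limma adjusted p = 0.0137, and 0.0511 without WT 2). The water channel gene Aqp1 was at -0.48 (limma adjusted p = 0.0187); the call was lost without WT 1 or WT 2, at 0.0639 to 0.0643, and with WT 2 and KO 1 both left out, at 0.0609. The other 11 tested partners did not pass in limma. Among them, Ermap was at -0.59 (adjusted p = 0.0600), Mpp1 at -0.35, Gypc at -0.29, Cd47 at -0.15 and the actin gene Actb at -0.03. Only Piezo1, at 0.23, and Tpm1, at 0.16, were above 0 among the partners. In KO against HET, 8 partners fell and 1 rose, against 13.6% and 8.17% of all genes tested. The 8 falls became 2 with Eif2s3y as a covariate, 5 with only KO and HET arrays in the fit, 2 without HET 1, 3 without HET 2, 4 without KO 2 and 5 without KO 3. The one that rose was Piezo1, a mechanically gated channel, at 0.39 (limma adjusted p = 0.0304), a call lost without WT 1, HET 1, HET 2 or HET 3 at 0.0523 to 0.0982.

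**Figure D5:**
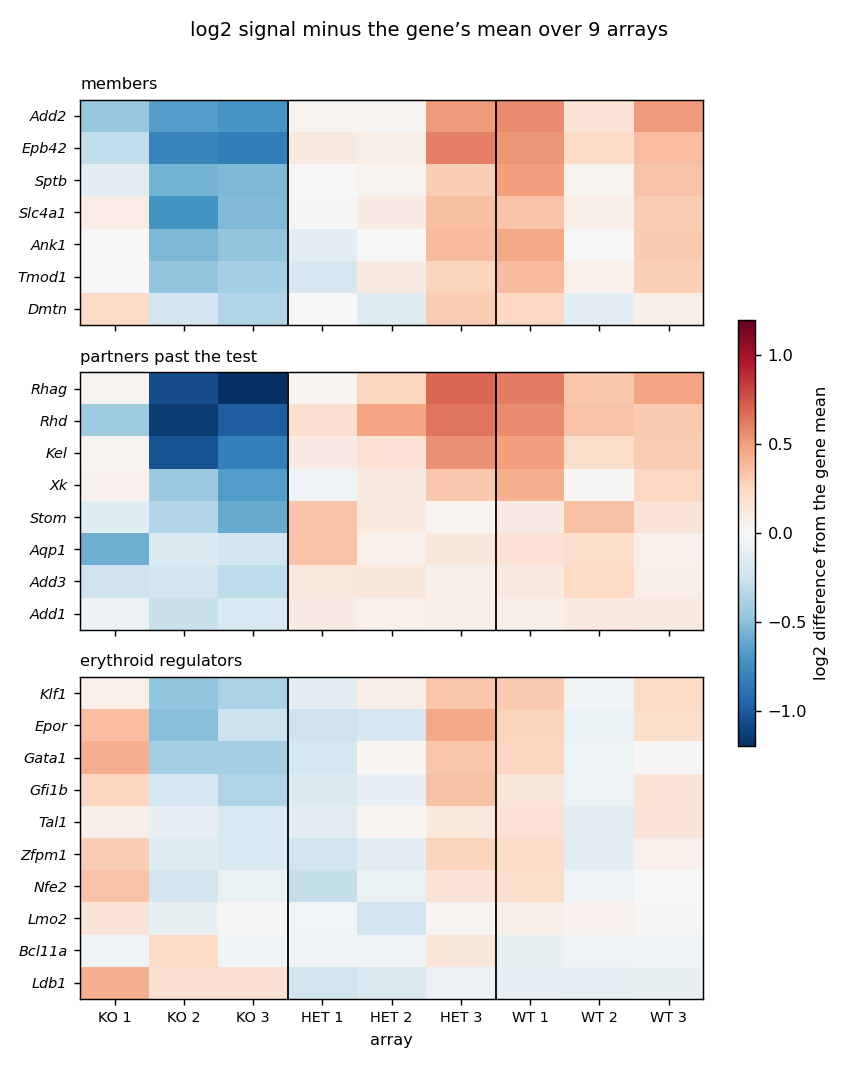
Log2 signal minus the mean of the gene over 9 arrays (colour) for the 7 measured genes, the 8 partners that fell in KO against WT and the 10 erythroid regulators, with arrays from KO 1 on the left to WT 3 on the right. KO 2 and KO 3 are low for the 7 genes and the partners. KO 1 is less low for the 7 genes and most partners, but Aqp1 is lowest in KO 1, and Add3 is about as low there as in KO 2. Among the regulators KO 1 is mostly high.

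Relatives of the same gene families, most of them used widely outside red cells, were listed as well. Of 24 listed, 19 were tested, and in KO against WT 9 fell, none rose and 10 did not pass, with a median of -0.24, while 15.2% of all genes tested fell and 8.27% rose. The ankyrin Ank2, known from heart and neurons, read 8.74, 8.63 and 8.65 on the KO arrays, 9.45, 9.43 and 9.25 on the HET arrays and 9.43, 9.51 and 9.27 on the WT arrays. Its fall of 0.73 (limma adjusted p = 0.0013) came with no overlap and with no high value in KO 1. Sptbn1, the general beta spectrin, was at -0.28 (limma adjusted p = 0.0112), and Vil1, a villin of epithelial brush borders related to dematin through its headpiece, at -0.53 (adjusted p = 0.0119). The calls of these 3 genes held without any 1 array, and that of Sptbn1 was lost with WT 2 and KO 1 both left out, at 0.0506. Slc4a4 at -0.59 (adjusted p = 0.0133), Ank3 at -0.51 (0.0217) and Tgm2 at -0.46 (0.0063) also passed in limma. So did Epb41l2 at -0.33 (0.0111), Epb41l3 at -0.32 (0.0067) and Tgm1 at -0.24 (0.0481). The Ank3 call was lost without WT 1, WT 2 or KO 2, at 0.0564 to 0.0753. That of Tgm1 was lost without any 1 array other than WT 3 or KO 2, at 0.0591 to 0.155. Epb41l2 did not pass with WT 2 and KO 1 both left out, nor did Tgm1. Tmod3, the widely expressed tropomodulin, was at -0.15 and Slc4a2, a widely expressed anion exchanger, at -0.10, and neither passed in limma.

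The genes most like the 7 over the 9 arrays were found by the root mean square difference between each gene and the mean of the 7, after each was centred on its own mean. Among 12587 genes the closest were Xk at 0.0825, Uros at 0.0857, Ikzf1 at 0.0892, Blvrb at 0.0906 and Ermap at 0.0953. Uros encodes an enzyme of heme synthesis, Ikzf1 the blood cell factor Ikaros, Blvrb a biliverdin reductase and Ermap a red cell surface protein. Of the 7 themselves, Sptb (0.0443) and Ank1 (0.0558) lay nearest to their shared mean and Dmtn (0.217) farthest.

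Other red cell genes and markers of other cells in the yolk sac were counted in KO against WT from fixed lists, with the range over arrays of each list's mean log2 signal. The counts stand beside 15.2% of all genes tested that fell and 8.27% that rose. Counts such as 3 of 12, 2 of 7 or 1 of 10 lie near those shares, and nothing about the markers is read from them. Heme enzymes fell in 4 of 7 tested genes, with list means of 10.04 to 10.36 in KO, 10.46 to 10.80 in HET and 10.53 to 10.73 in WT. Of 3 tested globins 1 fell (Hbb-y, an embryonic beta-like globin, at -0.20, limma), with means of 13.01 to 13.19 in KO, 13.17 to 13.21 in HET and 13.21 to 13.23 in WT, near the top of the array's range. Of the other cells, macrophage markers fell in 3 of 6 and megakaryocyte markers in 2 of 7, and visceral endoderm markers in 3 of 12, with visceral endoderm means of 11.85 to 12.03 in KO, 12.10 to 12.27 in HET and 12.13 to 12.23 in WT. Extraembryonic mesoderm markers rose in 5 of 10 and fell in 1, with means of 10.63 to 10.67 in KO, 10.35 to 10.43 in HET and 10.37 to 10.48 in WT.

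Endothelial markers had 1 fall and 1 rise among 10, with means of 9.44 to 9.50 in KO, 9.34 to 9.52 in HET and 9.44 to 9.52 in WT. Macrophage means were 7.69 to 8.11 in KO, 8.17 to 8.35 in HET and 8.11 to 8.43 in WT, and megakaryocyte means 7.46 to 7.61 in KO, 7.74 to 7.83 in HET and 7.73 to 8.01 in WT. Of 3 tested trophoblast markers 1 rose, with means of 8.70 to 9.48 in KO, 8.37 to 8.59 in HET and 8.30 to 8.47 in WT. Hand1 is on this list and also on that of extraembryonic mesoderm, so these lists are not separate. Maternal decidua markers had 1 rise (Des, 0.64, limma adjusted p = 0.0044) and 1 fall (Igfbp1, -1.43, limma adjusted p = 0.0023) among 6, with means of 8.79 to 9.07 in KO, 8.24 to 8.99 in HET and 8.73 to 9.15 in WT. The protocol states that maternal tissue was kept out of the samples. The part of these other cells in the lower signal of the skeleton genes was not tested.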

How the data were processed

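Total RNA of 9 yolk sac samples was hybridised, 1 array each, and the arrays' number limits the precision. Per the submitters' processing notes, the authors used RMA and Affymetrix Expression Console 1.2.1.20, and what they deposited is a log2 signal for each probe set. RMA, as generally run, normalizes arrays to each other, so values are relative, and its summaries tend to understate fold changes. A genome build for the array is not given in sources used here, so no coordinates of probe sets are printed; those of the promoter windows are RefSeq's. Of 28350 probe sets, 21780 named 1 gene, 1618 several and 4952 none; only the first kind was used. The Entrez number of 21689 was found in the RefSeq gene table, which changed 0 symbols.

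Genes above the 40th percentile of their array on at least 3 of 9 arrays were tested with limma 3.58.1 in R 4.3.3, on the log2 values, with genotype as the only factor and all 9 arrays in 1 model. P-values were adjusted by Benjamini-Hochberg over all genes tested, and a gene passed under 0.05. Exact permutation tests used SciPy 1.17.1. The limma step was tested on simulated data. Same-numbered arrays of different genotypes had correlations of their deviations from -0.26 to 0.42, over 0.1 in 5 of 9 pairs, so the numbers were not taken as pairs.

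The genes and lists were chosen with earlier results of these data known. Named were the 7 genes, Rnh1, listed partners, relatives and regulators that passed or are closest to one of the 7, and the 5 genes most alike in profile; marker lists were counted. Alternatives were other filters, scalings, priors, array weights, probe set means, a replicate block, Eif2s3y (a Y-linked gene) as a covariate and arrays left out. Sequences are RefSeq's. Gene identities by symbol, Entrez number and probe set are Sptb 20741 and 10401068, Ank1 11733 and 10570894, Add2 11519 and 10539669, Epb42 13828 and 10486664, Slc4a1 20533 and 10391649, Tmod1 21916 and 10504692, and Dmtn 13829 and 10421418.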

Additional observations from a re-analysis of the deposited data

How the results depend on the processing

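The falls of Add2, Epb42 and Sptb in KO against WT passed in limma under all 12 other settings and without any 1 array. The count of the 7 genes past the test was 6. It was 3 after cyclic loess, 3 with Eif2s3y as a covariate, 7 with array weights and 3 to 6 without any 1 array. With array weights 43.6% of all genes tested passed, in either direction. The cause of these shifts was not tested, beyond fewer samples where arrays were left out. In KO against HET the count was 3, it was 6 with WT 2 and KO 1 left out, and 2 to 6 without any 1 array. In KO against the pooled WT and HET arrays it was 6, and 3 to 6 without any 1 array. With WT 2 and KO 1 left out it was 7 there, with Dmtn at limma adjusted p = 0.0391, and 32.8% of all genes tested passed in either direction. Over all genes, KO against WT gave 3101 calls, 5753 with array weights and 1669 to 3842 without any 1 array. KO against HET gave 2875, 1739 with Eif2s3y as a covariate and 1508 to 3149 without any 1 array. KO against the pooled WT and HET arrays gave 4100, and 3213 to 4298 without any 1 array. HET against WT gave 0, 6 with array weights, 4 with WT 2 and KO 1 left out and 0 to 5 without any 1 array. The difference of Dmtn between HET and WT, -0.01, turned to 0.0212 after quantile normalization and 0.0130 after cyclic loess, and ran from -0.138 to 0.0923 without any 1 array, above 0 without WT 1, HET 1 or HET 2; none passed. Across all settings the number of partners that fell was 4 to 11 in KO against WT and 2 to 10 in KO against HET, and that of relatives 7 to 14 and 3 to 11. With the replicate number as a block, 6 of the 7 genes passed in KO against WT, and 3131 genes in all. Only the genotypes compared was not run for the pooled comparison. The 3 arrays a group limit the precision.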
